A study of Mus musculus with 2 samples.

Results

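The genes described here build and maintain cilia. Members were chosen by their gene symbol in the array's platform annotation: a single symbol of the Cfap, Dnah, Dnai, Dnaic, Rsph, Ift or Bbs series followed by a digit. No intensity entered that rule, but these families were selected on results of these arrays already known, in which Cfap54 was among the highest genes, so every value is a description. The rule took 75 of 19938 genes with a single symbol, measured by 125 of the 28944 probe sets on the array. Of these, 103 probe sets of 53 genes form the group called motile axoneme here (Cfap, Dnah, Dnaic and Rsph symbols). The other 22 probe sets, of 22 genes, form transport and Bbs, for Bardet-Biedl (14 Ift and 8 Bbs genes). Both names follow the symbols alone. Among the Cfap proteins some act outside the axoneme, in the cytoplasm or at the ciliary base. A further 5 probe sets name several genes, at least 1 of them with such a symbol, and stand apart from these counts. Rsph3a and Rsph3b are named only by probe sets of that kind, so neither is among the 75 genes.

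The cells were neural precursor cells from the forebrain of Jcl:ICR mouse embryos at E11.5. One culture received a control retrovirus and the other a retrovirus carrying HMGN1, a protein that binds nucleosomes, and both were infected while FGF2 and EGF were present. Replating took place 3 days after infection, and total RNA was taken after 1 further day with neither growth factor. There are 2 arrays, 1 per virus, so no difference has a replicate check and no p-value is given. Neither the number of embryos behind each culture, nor the viral promoter, nor the share of infected cells appears in the labels.

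A cilium is a microtubule rod, the axoneme, that projects from a centriole under the cell membrane. Precursor cells of the embryonic brain carry a primary cilium, which does not beat and serves Hedgehog signalling, whereas multiciliated ependymal cells arise later and carry motile cilia. Motile axonemes of ependymal cells need dynein arms, radial spokes and a central pair of microtubules. Intraflagellar transport (IFT) carries cargo along either kind of cilium: the IFT-B complex moves outward with kinesin, the IFT-A complex returns with dynein, and the BBSome, an assembly of Bbs proteins, carries membrane proteins.

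The most direct difference between the families was in which probe sets gave a signal. A probe set was counted as detected when its mean over both arrays reached a floor of 85.9 in intensity, which 95% of the 1035 probe sets for olfactory receptors do not reach. Of the 22 transport and Bbs probe sets 20 were detected (90.9%), and of the 103 motile axoneme probe sets 14 were (13.6%), beside 57.4% of all 21789 named probe sets. By gene, 20 of 22 transport and Bbs genes and 12 of 53 motile axoneme genes had a detected probe set. All 14 Ift genes were detected, against 6 of 8 Bbs genes and 9 of 31 Cfap genes. For dynein heavy chain genes it was 2 of 15, for dynein intermediate chain genes 1 of 2 and for radial spoke genes 0 of 5. The spoke count leaves out Rsph3a and Rsph3b, named together by probe sets above the floor (298 and 301, and 342 on both arrays). Probe sets differ in how well they bind, so a probe set under the floor does not show that its gene is silent, and intensities of different genes are not compared. In cultures measured as a whole, fewer cells with a transcript and less transcript per cell cannot be told apart.

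The defining markers of neural precursors were present: all 8 listed genes were detected, among them Sox2 at 2422 in the control culture and 2444 in the HMGN1 culture. Pairs of intensities below keep that order. Of the 8, 3 were higher and 5 lower, beside 59.5% of all detected named probe sets higher. Sox1 was lowest, at 601 and 467 (-0.35), followed by Prom1 at 202 and 169 (-0.24). Of the 8 only Sox1 passed the size of 0.32 used below, as did 0.511% of all detected named probe sets in that direction. Of 10 ependymal markers 2 were detected, Tppp3 (136 and 116) and Ccdc153 (101 and 93.4). The summed intensity of all 10, those under the floor included, was 632 and 589. Foxj1, the transcription factor that sets up motile ciliogenesis, lay just under the floor at 85.0 and 80.8. Detected markers of other cell types were 2 of 6 for choroid plexus (summed intensity 596 and 606), 1 of 5 for microglia (279 and 267), 0 of 5 for endothelium (297 and 269) and 3 of 5 for mesenchyme (515 and 494). Each sum covers every listed marker of its type, detected or not. For choroid plexus the detected Ttr was lower (140 and 132) and Otx2 equal (244 on both arrays). Its sum was higher through Aqp1, Kl and Clic6, all under the floor. The part of these cell types in the cilium values was not tested. Hmgn1 itself was at 229.7 and 348, a log2 difference of 0.57, and Gfap, which marks astrocytes, at 406 and 615 (0.58).

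**Figure D1:**
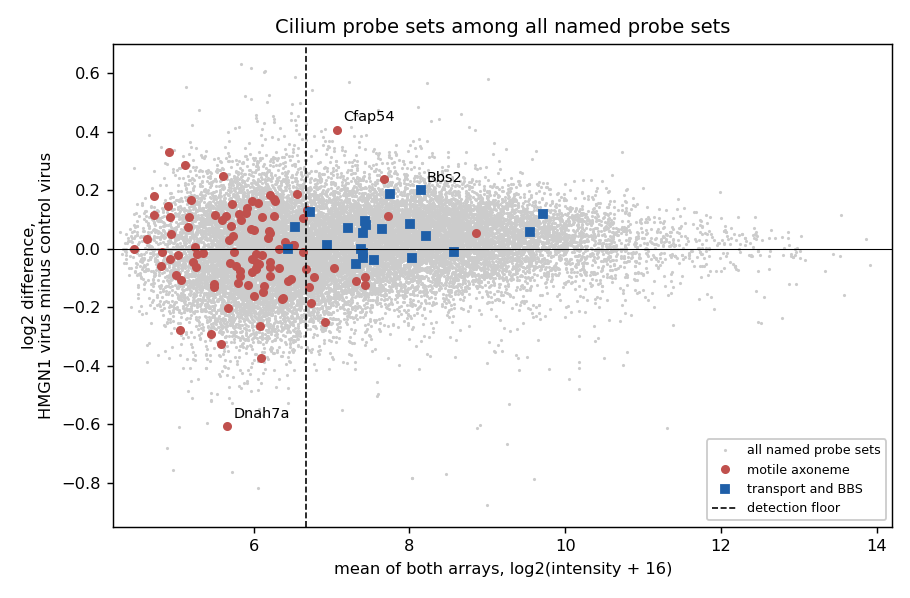
The mean of both arrays as log2(intensity + 16) is plotted against the log2 difference (HMGN1 virus minus control virus) for all 21789 named probe sets (grey), the 103 motile axoneme probe sets (red circles) and the 22 transport and Bbs probe sets (blue squares). Most red circles lie left of the dashed floor, where grey points scatter widely, and the blue squares lie mostly right of it and within 0.20 of 0.

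Differences below are HMGN1 virus minus control virus on the log2(intensity + 16) scale, on which a dim gene's change appears smaller than it is. A difference was counted as sizeable from a log2 value of 0.32 in either direction. As a yardstick within this pair of arrays, detected probe sets of the same gene differed with an SD of 0.0891 (pooled over 683 genes), which leaves out variation between cultures. Among detected members 1 of 34 was sizeably higher, namely Cfap54, and 0 of 34 were sizeably lower. Of all 12513 detected named probe sets, 0.519% were that much higher and 0.511% that much lower. No member reached 1.5-fold while detected. Taken by sign alone, 18 of 34 detected members were higher, 15 lower and 1 equal, beside 59.5% of all detected named probe sets higher, and their median was 0.029 beside 0.026 for all. The share by sign and the median lie near the background. The 1 sizeably higher member, Cfap54, was known to be high before these families were selected. The rest of the description concerns how the families divide.

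**Figure D2:**
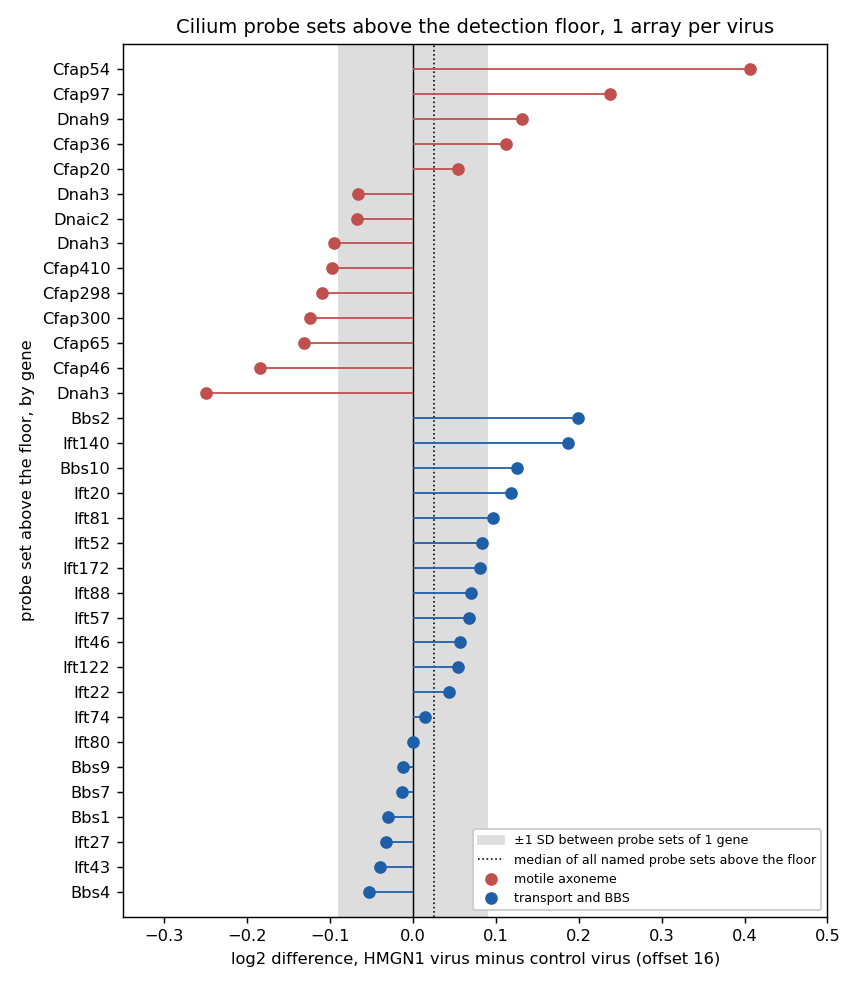
Log2 difference (HMGN1 virus minus control virus) of each detected probe set, 14 of the motile axoneme (red) and 20 of transport and the Bbs genes (blue), with the grey band marking 1 SD between probe sets of 1 gene and the dotted line the median of all detected named probe sets. Cfap54 at 0.41 is the point farthest from 0, and 15 of the 20 blue points lie inside the band, against 3 of the 14 red points.

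Of the transport and Bbs probe sets above the floor 13 were higher, 6 lower and 1 equal, with a median of 0.055. Of the motile axoneme probe sets 5 were higher and 9 lower, with a median of -0.082, so the medians differed by -0.14. The gap rests on 14 probe sets of 12 genes. Of these 14, 4 passed the floor with 1 of their arrays under it, Cfap46, Cfap65 and Dnaic2 (lower) and Dnah9 (higher), as did 1 of the 20 transport and Bbs probe sets, Bbs10 (higher). With the floor raised to the 99th olfactory receptor percentile (intensity 119.5), 6 motile axoneme probe sets were left, 3 higher and 3 lower. All 6 were for Cfap genes, and the gap was -0.077. In 11 of those 14 the difference was larger than the SD of 0.0891, against 5 of 20 for transport and Bbs and 40.7% of all detected named probe sets. Between the floor and the 99th percentile, 6 of 8 motile axoneme probe sets passed that SD, beside 47.1% of named probe sets. Above the 99th percentile 5 of 6 did, beside 39.5%. By sign, 2 of the 8 in the dimmer range were higher, beside 47.2% of named probe sets there. In the brighter range 3 of 6 were, beside 62.0%. For transport and Bbs these counts were 2 of 2 and 11 of 18. Where genes are put in equal bins by span, the distance from a gene's start to its end, the bins' medians run from -0.032 for the shortest genes to 0.051 for the longest. The median span was 35.1 kb for the motile axoneme probe sets and 39.2 kb for transport and Bbs, and the median of their bins was 0.042 and 0.046. Relative to its own bin, the motile axoneme median was -0.11, with 5 of 14 above their bin, and the transport and Bbs median 0.019, with 12 of 20 above.

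By sign, intraflagellar transport genes were mostly a little higher with the HMGN1 virus. Of the 14 Ift probe sets, each for a different gene, 11 were higher, 2 lower and 1 equal, with a median of 0.062, beside 59.5% higher and a median of 0.026 over all detected named probe sets. Relative to the bin of genes of like span, 10 of the 14 were above the bin's median. The largest was Ift140, a core subunit of IFT-A that returns cargo to the cell body, at 185 and 213 (0.19). The other IFT-A subunits under an Ift symbol were Ift122 at 150.2 and 156 (0.054) and Ift43 at 172 and 167 (-0.040). The 3 IFT-A genes thus went both ways.

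Among 7 subunits of the IFT-B core 6 were higher, with a median of 0.056. Ift81 was at 150.1 and 162 (0.096) and its partner Ift74, with which it binds tubulin cargo, at 106 and 107 (0.014). Ift52 was at 234 and 249 (0.084), Ift88, needed to build cilia, at 129 and 136 (0.070), and Ift46 at 717 and 747 (0.056). The small GTPase-like subunits were Ift22 at 277 and 286 (0.044) and Ift27 at 155 and 151 (-0.033). All but Ift81 lay within 1 SD between probe sets.

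The 4 peripheral IFT-B subunits were Ift20, which also works at the Golgi, at 787 and 856 (0.12), Ift172 at 153 and 162 (0.081), Ift57 at 181 and 190.0 (0.067) and Ift80 at 149.8 on both arrays. The same value in both columns stood for 4 of the 125 members and for 749 probe sets of the whole table; how such equal values arose is not known here. After centring on the median of all detected named probe sets, 10 Ift genes were higher and 4 lower, and their median was 0.036.

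The Bbs genes divided differently. Of the 5 detected BBSome subunits, Bbs2 was at 248 and 287 (0.20), the largest difference of any transport or Bbs member. The other 4 were slightly lower: Bbs1, which links the BBSome to the GTPase Arl6, at 248 and 242 (-0.031), Bbs4 at 146 and 141 (-0.053), Bbs7 at 155 and 153 (-0.014) and Bbs9 at 367 and 363 (-0.012). These 4 lay within 1 SD between probe sets and Bbs2 beyond it. Bbs5, a BBSome subunit that binds membrane lipids, was under the floor at 74.0 and 78.7. Of the chaperonin-like genes, whose products assemble the BBSome, Bbs10 was just over the floor at 85.1 and 94.2 (0.13) and Bbs12 just under it, at 70.7 on both arrays. The 6 detected Bbs probe sets had a median of -0.013.

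Among Cfap genes, a family named for its presence in cilia and flagella and not for a shared function, 9 probe sets of 31 genes were detected. Cfap54, a component of the central pair, was at 100.3 and 138 (0.41). Its second probe set was dimmer, at 41.3 and 46.3, and differed by 0.12, in the same direction but under the floor. Cfap97 was at 172 and 206 (0.24), Cfap36, which binds the GTPase Arl3, at 187 and 203 (0.11), and Cfap20, a protein of the seam between the paired microtubules, at 439.7 and 457 (0.054). Thus 4 of the 9 were higher and 3 of these passed the SD between probe sets.

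The remaining 5 Cfap probe sets were lower, each by more than that SD. Cfap298 was at 149 and 137 (-0.11) and Cfap300 at 164 and 149 (-0.12); both help to assemble dynein arms in the cytoplasm. Cfap410, a protein of the ciliary base, was at 163 and 151 (-0.098). Cfap46, of the central pair, was at 97.8 and 84.1 (-0.18), and its second probe set, under the floor at 57.2 and 50.1, gave -0.15. Cfap65, needed for sperm flagella, was at 94.0 and 84.4 (-0.13). Central pair genes thus went both ways, Cfap54 higher and Cfap46 lower.

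Most dynein heavy chains, the motors of the arms, were under the floor. Dnah9, of the outer arm, was at 82.3 and 91.7 (0.13), close to the floor, and the outer arm chains Dnah5 (46.6 and 49.4), Dnah11 (50.7 and 47.7) and Dnah17 (2 probe sets, 0.054 and -0.13) were below it. Dnaic2, an intermediate chain of the outer arm, was just detected at 88.7 and 83.9 (-0.068), and Dnaic1 was just under at 74.2 and 75.0 (0.013). The 4 members just above the floor were Dnaic2, Dnah9, Cfap65 and Bbs10. The 4 just below it were Rsph6a (84.0 and 83.3), Rsph9 (79.4 and 86.7), 1 probe set of Cfap43 (72.0 and 84.1) and Bbs5.

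Dnah3, an inner arm heavy chain, shows how far single probe sets of this class can be read. It has 33 probe sets, of which 3 were detected, at 118 and 112 (-0.066), 116 and 94.7 (-0.25) and 97.5 and 90.3 (-0.095). Over all 33 the median was -0.035, with 11 higher, 21 lower and 1 equal, and the differences ran from -0.32 to 0.33. Its detected probe sets were all lower, but 11 of the 30 dimmer ones were higher. These probe sets share 1 gene and are not independent. Without Dnah3, 5 of 11 detected motile axoneme probe sets were higher and 6 lower, with a median of -0.068.

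**Figure D3:**
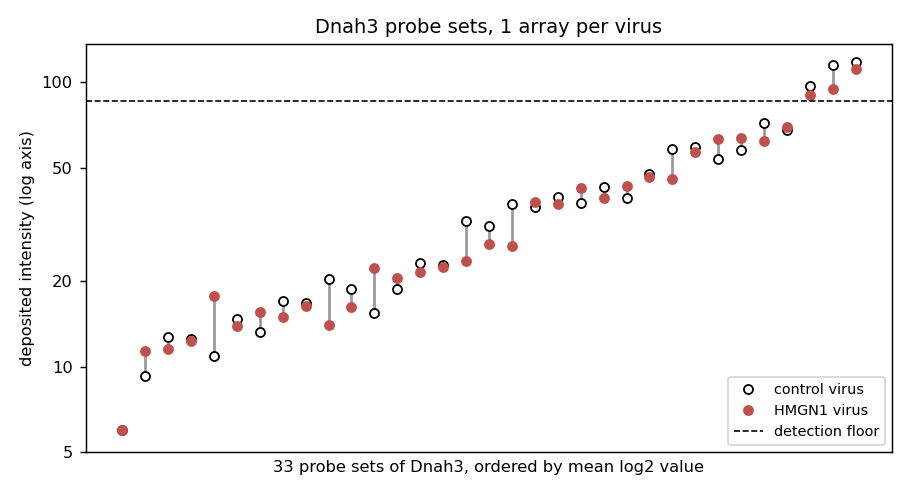
Deposited intensity (log axis) of the 33 Dnah3 probe sets with the control virus (open circles) and the HMGN1 virus (filled circles), ordered by mean. The 3 probe sets over the dashed floor all show the filled circle below the open one, while lower down the order changes from probe set to probe set.

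Under the floor lay 89 motile axoneme and 2 Bbs probe sets, where 42 were higher, 46 lower and 3 equal, with a median of -0.011 beside -0.022 for all named probe sets under the floor. Here 1 of 91 members was sizeably higher and 3 sizeably lower, beside 0.722% and 1.63% of the 9276 named probe sets under the floor. The highest were 2 probe sets of Dnah3 (10.9 and 17.8, 0.33; 15.4 and 22.3, 0.29) and 1 of Dnah10 (28.9 and 37.3, 0.25). The lowest were Dnah7a (46.4 and 25.0, -0.61), 1 of 5 probe sets of Cfap43 (61.8 and 44.0, -0.37) and another of Dnah3 (37.3 and 26.6, -0.32). Dnah7a has near-identical copies: Dnah7c differed by 0.062, Dnah7b by -0.068 and 0.068, and probe sets naming all 3 copies by 0 and -0.17, so its value is uncertain. The 5 probe sets of Cfap43 ran from -0.37 to 0.19 and the 5 of Dnah10 from -0.17 to 0.25, which shows the scatter within a gene at this brightness.

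The other dynein heavy chains under the floor were Dnah1, Dnah2, Dnah6, Dnah8, Dnah12 and Dnah14, between -0.022 for Dnah1 and 0.17 for 1 probe set of Dnah6. All 3 probe sets of Dnah6 were higher, by 0.0068 to 0.17. The radial spoke genes, whose products pass signals from the central pair to the dynein arms, were Rsph1 (47.3 and 42.1, -0.12), Rsph4a (38.6 and 31.5, -0.20), Rsph6a (-0.011), Rsph9 (0.11) and Rsph14 (52.0 and 44.8, -0.16). Probe sets naming both Rsph3a and Rsph3b, a spoke stalk gene and its copy, were brighter, at 298 and 301 (0.014) and at 342 on both arrays. Thus 4 of 5 single-symbol spoke genes were lower, at intensities where 55.2% of all named probe sets were.

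The Cfap probe sets under the floor were 31, of which 14 were higher, 16 lower and 1 equal. They include proteins of the microtubule lumen (Cfap45, Cfap52, Cfap53, Cfap126, Cfap161), of the central pair (Cfap47, Cfap69, Cfap74, Cfap221) and of the dynein regulators (Cfap43, Cfap44, Cfap57, Cfap100). Apart from Cfap43 they ran from -0.15 (Cfap46) to 0.17 (Cfap20dc). Both probe sets of Cfap61 were higher (0.12 and 0.15), both of Cfap74 lower (-0.048 and -0.078) and both of Cfap57 lower (-0.066 and -0.011). The others, Cfap58, Cfap70, Cfap77, Cfap97d1, Cfap157, Cfap206 and Cfap299, ran from -0.12 for Cfap58 to 0.11 for Cfap97d1. Of the 9276 named probe sets under the floor 4636 passed the SD of 0.0891, as did 18 of these 31.

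Genes of the same pathways under other symbols, taken from lists chosen with earlier results known, were read beside the members. Of 15 measured IFT and Bbs genes under other symbols 12 were detected, with 7 probe sets higher and 6 lower and a median of 0.015. Over all detected named probe sets 59.5% were higher, with a median of 0.026. The list holds IFT subunits, Bbs genes and regulators together. The IFT-A subunit Wdr35 (133 and 158, 0.22) and the chaperonin-like Mkks (174 and 200.5, 0.19) were highest, and Rabl2 (275 and 254, -0.11) and 1 probe set of Lztfl1 (476 and 444, -0.094), a BBSome regulator, lowest. The other IFT-A subunits were Ttc21b (122 and 136, 0.14) and Wdr19 (211 and 203, -0.052). The detected IFT-B subunits were Cluap1 (168 and 185, 0.12), Hspb11 (105 and 109, 0.045) and Ttc26 (129 and 121, -0.082). IFT subunits under other symbols thus went both ways.

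The motors of transport had a median of 0.052, with 5 of 9 detected probe sets higher, 3 lower and 1 equal, beside the 59.5% of all detected named probe sets that were higher, the background also for the next lists. The kinesin subunits Kif3c (359 and 388, 0.11) and Kif3b (201 and 218, 0.11) were highest, and the dynein-2 subunits Wdr60 (97.9 and 84.7, -0.18) and Dync2li1 (129.5 and 125, -0.047) lowest. The dynein-2 heavy chain Dync2h1 was at 170 and 177 (0.052).

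At the transition zone, the gate at the base of the cilium, 6 of 17 detected probe sets were higher and 11 lower, with a median of -0.030. Tmem17 (124 and 102, -0.25) and Mks1 (113 and 97.2, -0.18) were lowest, and Rpgrip1l (131 and 151, 0.18) and Rpgr (213 and 225, 0.075) highest. In the list of ciliary membrane and Hedgehog genes 8 of 13 were higher, near that background, with a median of 0.033, from Kif7 (115 and 102, -0.15, and 106 and 98.0, -0.10) to Tulp3 (213 and 239, 0.15) and Gli2 (154 and 170.1, 0.13). The Hedgehog targets Ptch1 (869 and 832, -0.063) and Gli1 (87.3 and 80.1, under the floor) showed no sizeable difference. No detected probe set of these lists, transport motors included, reached a log2 difference of 0.32.

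Regulators of motile ciliogenesis were mostly dim. Of 11 measured, 4 were detected: Rfx3 (510 and 521, 0.031), Rfx2 (157 and 153, -0.038), Myb (145 and 151, 0.055) and Mcidas (119 and 118, -0.0095). Rfx factors act on genes of both kinds of cilium. In the list of dynein assembly, docking and regulatory genes 4 of 19 were detected. Gas8 (189 and 215, 0.18) and Dnaaf5 (209 and 213, 0.026) were higher, and Ccdc40 (93.0 and 86.2, -0.093) and Dnaaf2 (153 and 145, -0.074) lower. Of axoneme genes under other symbols, 4 of 20 were detected by 6 probe sets. Of these, 5 were higher and 1 lower, beside 59.5% higher in the background, with a median of 0.049. Dnal1 (138 and 155, 0.15) and 1 probe set of Spef2 (145 and 157, 0.11) were highest. Another Spef2 probe set gave -0.21 (95.3 and 80.1) and a further one 0.050 (96.2 and 100.2). The detected probe sets of Spef2 thus went both ways, and as probe sets of 1 gene they are not independent. Dnal4 differed by 0.032.

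**Figure D4:**
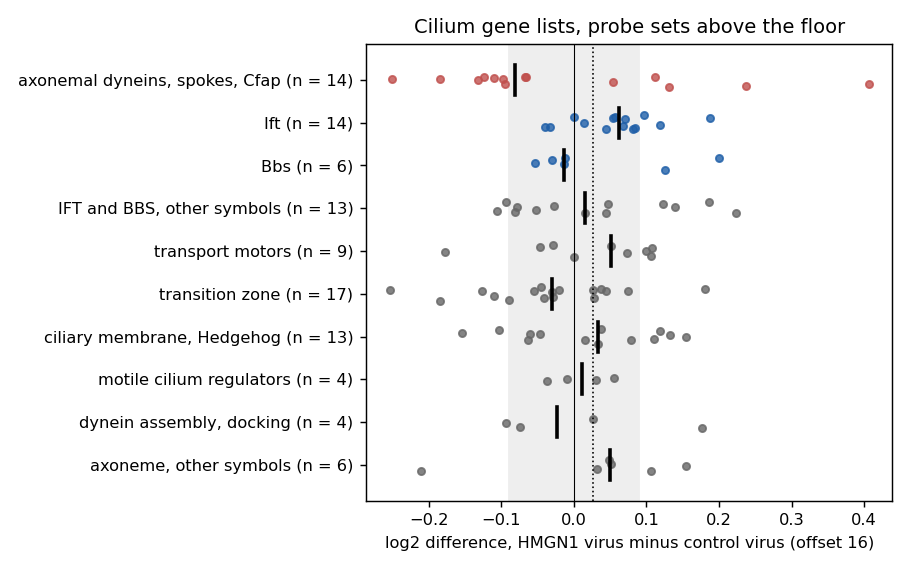
Log2 difference (HMGN1 virus minus control virus) of each detected probe set in the members (coloured) and in the other cilium lists (grey), with a black bar at each median, a grey band of 1 SD between probe sets of 1 gene and a dotted line at the median of all detected named probe sets. The Ift bar lies at 0.062, the motile axoneme bar at -0.082, and the bars of the other lists from -0.030 to 0.052.

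Promoter sequences are shown because Rfx factors bind an inverted repeat, the X-box, in promoters of cilium genes. The half-site GTTGCCA was searched on both strands from 250 bases before to 50 after each RefSeq start (GRCm38.p6). Of 27025 genes with such a sequence 5.02% hold it. Of the 63 members with one, 12 do (19.0%), namely 9 of 44 motile axoneme genes and 3 of 19 transport and Bbs genes. Among the 25 members with a detected probe set and a promoter sequence it was found in 6. The forkhead site GTAAACA, also on both strands and in no match overlapping the half-site, was found in 4.05% of all genes and in 3 of the 63 members, Cfap20, Cfap43 and Dnah17. A match is a description and not evidence of binding.

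The 140 bases before the start follow for 3 detected Cfap genes and 1 Ift gene that hold the half-site, for Cfap161, which holds it 3 times, and for Ift140, Ift20 and Bbs2, 3 of the 4 highest transport and Bbs members, which hold neither motif. Capitals mark the half-site, which reads TGGCAAC on the opposite strand.

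Cfap161 (chr7:83794840-83794979, minus strand): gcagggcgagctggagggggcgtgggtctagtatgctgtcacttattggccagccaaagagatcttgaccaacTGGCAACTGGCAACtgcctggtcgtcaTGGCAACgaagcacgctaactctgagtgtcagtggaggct
Cfap298 (chr16:90934850-90934989, minus strand): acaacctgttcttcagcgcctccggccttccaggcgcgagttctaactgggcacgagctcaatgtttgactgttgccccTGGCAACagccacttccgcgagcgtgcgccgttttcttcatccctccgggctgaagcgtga
Cfap300 (chr9:8042876-8043015, minus strand): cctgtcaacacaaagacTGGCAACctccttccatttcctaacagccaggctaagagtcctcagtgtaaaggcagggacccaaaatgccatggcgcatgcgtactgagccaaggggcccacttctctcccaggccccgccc
Cfap20 (chr8:95434870-95435009, minus strand): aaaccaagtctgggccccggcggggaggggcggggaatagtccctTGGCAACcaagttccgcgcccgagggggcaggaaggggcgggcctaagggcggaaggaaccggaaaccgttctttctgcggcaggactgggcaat
Ift27 (chr15:78174082-78174221, minus strand): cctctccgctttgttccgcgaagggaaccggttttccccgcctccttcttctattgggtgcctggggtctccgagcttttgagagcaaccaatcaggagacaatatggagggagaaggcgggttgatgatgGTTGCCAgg
Ift140 (chr17:25015946-25016085, plus strand): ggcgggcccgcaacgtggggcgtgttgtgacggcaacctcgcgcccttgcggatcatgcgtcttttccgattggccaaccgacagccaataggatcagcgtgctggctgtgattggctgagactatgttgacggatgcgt
Ift20 (chr11:78536221-78536360, plus strand): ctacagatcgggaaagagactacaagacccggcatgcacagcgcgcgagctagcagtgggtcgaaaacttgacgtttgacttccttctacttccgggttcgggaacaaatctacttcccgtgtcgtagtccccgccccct
Bbs2 (chr8:94098510-94098649, minus strand): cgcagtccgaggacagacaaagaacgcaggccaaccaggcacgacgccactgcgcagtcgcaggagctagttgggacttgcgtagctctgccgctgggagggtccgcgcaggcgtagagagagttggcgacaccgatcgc

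The matches in Cfap161 begin at positions -67, -60 and -40 from its start, and its probe set was under the floor (41.3 and 47.2, 0.14). Cfap298 and Cfap300, both lower, and Cfap20, higher by less than 1 SD between probe sets, carry 1 half-site each, as does Ift27. Members with the half-site thus went both ways, and Ift140 and Bbs2, the highest transport and Bbs members, had no match in this window.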

How the data were processed

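Total RNA of 2 cultures was labelled with biotin by a whole-transcript kit and hybridised to 1-colour arrays, per the labels' protocols. The deposited table holds intensity values on a linear scale, 1 column per array; for the authors' background correction, normalization and probe summary the method was not given in the sources used here. Genes come from GEO's platform annotation: 21789 of 28944 probe sets have 1 symbol, 1621 several and 5534 are unnamed here. All 125 members matched the RefSeq gene table by gene number.

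Values were taken as log2(intensity + 16). Each probe set was kept on its own. Every detected member is named with its intensities, the others by symbol and range with the 3 highest and 3 lowest, and of each other list the 2 highest and 2 lowest. Ttc21b, Wdr19, Cluap1, Hspb11, Ttc26, Dync2h1, Ptch1, Gli1, Sox1 and Prom1, the subunit roles, the motifs, the printed promoters and the split by brightness were chosen after values were seen. Members and lists were chosen with earlier results of these data known. No spread within a group can be estimated from 1 array each, so nothing was tested; the number of arrays limits the precision. Code was tested on simulated data. Alternatives were other offsets, quantile normalization, centring, removal of a trend with intensity or gene span, other floors, 1 value per gene and a larger size; trends were removed by loess with a fraction of 0.3. Python 3.11.15, pandas 2.3.3 and statsmodels 0.14.6 were used.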

Additional observations from a re-analysis of the deposited data

How the results depend on the processing

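No paired analysis was possible because neither virus has a second array, and for the same reason no replicate could be left out. The motile axoneme median stayed below 0 under all 11 alternatives run (-0.107 to -0.0136), the transport and Bbs median above 0 (0.0292 to 0.0583) and the gap between them below 0 (-0.152 to -0.0688); the value nearest 0 of the first and last came without a floor. With the floor at the 99th percentile the motile axoneme median was -0.0219, over 6 probe sets. Not every alternative could change these results, and all use the same 2 arrays. Another offset keeps the sign of each difference, and centring leaves the gap as it was. Each transport and Bbs gene has 1 probe set, so taking 1 value per gene or leaving out Dnah3 cannot move their median. The count of members sizeably higher, 1, rests on Cfap54. It became 0 with an offset of 64, 0 with the floor at the 99th percentile, 0 with probe sets averaged per gene (Cfap54 0.26), 0 at a size of 1.5-fold and 2 with no floor. The count lower, 0, became 3 with no floor and was 0 in the other 11 alternatives. The alternative without Dnah3 was added after seeing the data. By construction fewer or more probe sets enter when the floor moves; for the rest the cause was not tested. Low signal limits most motile axoneme genes.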
